A study of Mus musculus with 7 samples.

Results

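The genes described here are the ARF exchange factors and the ARF GTPase-activating proteins, together with ARF1, ARF6, the cytohesin-binding protein gene Cytip and the ARF effectors Gga1, Gga2 and Gga3. They were taken by gene symbol from a list of 43 names, chosen by function with earlier results of these data known, and all 43 were found among the 17404 genes of the expression table. RNA-Seq had been run on ventricles of neonatal mice at postnatal day 4 (P4), with 1 library for each pool of hearts, from 3 pools of BALB/cByJ and 4 pools of BALB/cJ mice. The labels give 3 to 4 hearts a pool, and the study's text also gives a larger number. BALB/cByJ mice are homozygous for a natural deletion that removes nearly all of the coding sequence of Cyth1 and leaves its promoter and first exon in place, and the study describes a transcript that joins this exon to the neighboring gene Dnah17. BALB/cJ mice carry an intact Cyth1 and, as an allele of their own, a retroviral insertion in an intron of Zhx2. Neither strain received a treatment. Both are inbred sister strains that were bred apart for decades, so the loss of Cyth1 and the other differences between the strains cannot be told apart here. The question asked of these genes was whether any other ARF regulator, or ARF6 itself, differs in a heart that lacks nearly all of the Cyth1 coding sequence.

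ARF proteins are small GTPases that act as switches on membranes. They are turned on by exchange factors (GEFs), which share a Sec7 domain and load the GTPase with GTP, and turned off by GTPase-activating proteins (GAPs), which share a zinc-finger ARFGAP domain. ARF1 works mainly at the Golgi, where it recruits the COPI and AP-1 coats and the GGA adaptors, whereas ARF6 works at the plasma membrane and endosomes in endocytosis, recycling, actin remodeling and cytokinesis. The cytohesins are exchange factors of the cell periphery that act on ARF6 and ARF1, and Cyth1 is the founding member of that family.

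The 4 cytohesins are close paralogs, and a stretch of their Sec7 coding sequence is printed to show where they part. It was chosen as the gap-free 60-base stretch, within a single exon of each gene, where Cyth1 is most like the others. It therefore shows them as more alike than they are over the whole coding sequence. Each stretch has 60 bases of the coding strand from a GENCODE M39 transcript on GRCm39. It lies at chr11:118074757-118074816 (minus strand, exon 7) for Cyth1, within the interval that BALB/cByJ lacks. For the others it lies at chr7:45460327-45460386 (minus strand, exon 6) for Cyth2, chr5:143687078-143687137 (plus strand, exon 7) for Cyth3 and chr15:78493966-78494025 (plus strand, exon 7) for Cyth4. Capitals mark the bases that differ from Cyth1.
Cyth1: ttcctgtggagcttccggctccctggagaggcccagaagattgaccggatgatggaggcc
Cyth2: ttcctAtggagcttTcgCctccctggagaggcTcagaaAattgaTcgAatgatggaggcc
Cyth3: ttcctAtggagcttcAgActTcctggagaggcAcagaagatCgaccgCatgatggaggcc
Cyth4: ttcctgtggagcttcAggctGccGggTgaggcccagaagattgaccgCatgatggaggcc
Cyth2 and Cyth3 each differ from Cyth1 at 7 of these bases and Cyth4 at 5. Over the whole aligned coding sequence, identity to Cyth1 was 78% for Cyth2, 76.4% for Cyth3 and 70.6% for Cyth4. The longest run of bases shared with the whole Cyth1 transcript was 23 for Cyth2, 22 for Cyth3 and 22 for Cyth4, and no run of 25 bases was shared with Cyth1.

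The promoters of the same genes are printed because the Cyth1 promoter remains in BALB/cByJ although nearly all of the coding sequence behind it is gone. Each window has 160 bases, 130 before and 30 after the start, from RefSeq on GRCm38.p6. The windows lie at chr11:118248529-118248688 (minus strand), chr7:45814287-45814446 (minus strand), chr5:143622317-143622476 (plus strand) and chr15:78596917-78597076 (plus strand), in the order Cyth1 to Cyth4. Capitals mark the GC box GGGCGG, read on either strand (CCGCCC on the other).
Cyth1: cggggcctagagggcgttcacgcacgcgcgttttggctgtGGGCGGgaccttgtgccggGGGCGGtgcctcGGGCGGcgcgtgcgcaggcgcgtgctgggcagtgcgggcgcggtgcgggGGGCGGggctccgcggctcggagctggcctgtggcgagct
Cyth2: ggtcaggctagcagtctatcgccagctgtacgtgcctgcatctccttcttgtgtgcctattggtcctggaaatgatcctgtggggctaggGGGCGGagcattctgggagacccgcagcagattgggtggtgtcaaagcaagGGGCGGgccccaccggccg
Cyth3: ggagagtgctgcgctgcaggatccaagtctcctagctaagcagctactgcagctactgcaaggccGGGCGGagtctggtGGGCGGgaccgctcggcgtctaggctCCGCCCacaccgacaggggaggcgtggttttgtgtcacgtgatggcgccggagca
Cyth4: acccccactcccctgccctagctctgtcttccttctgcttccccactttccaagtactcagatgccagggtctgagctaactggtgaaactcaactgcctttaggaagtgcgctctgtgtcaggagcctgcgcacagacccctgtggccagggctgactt
The printed windows hold 4 GC boxes in Cyth1, 2 in Cyth2, 3 in Cyth3 and 0 in Cyth4. Among all members, 34 matched a RefSeq window, which reaches further on both sides than the stretches printed, and 26 of these (76.5%) held a GC box, against 64.8% of the 10132 tested genes with a window and 35.7% of all 32851 windows. The letters TATAAA, read on both strands and sharing no base pattern with the GC box, were in 0 of the 34 members' windows and in 6.99% of those of the tested genes. These matches describe the letters in the windows and nothing about binding.

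Values are expression values per gene, already normalized by the authors. They are taken here as scaled for sequencing depth and transcript length, which the sources used here do not state, and sums over genes rest on that. Differences are those between the strains on the log2(value + 1) scale, BALB/cByJ minus BALB/cJ, so that a positive difference is higher in BALB/cByJ. On that scale the change of a low gene comes out too small. Of the 43 members, 40 had a mean of at least 0.5 over the 7 libraries and were tested with limma beside all other such genes, 12715 in all. Psd2, Psd4 and Cytip were below this minimum. An adjusted p under 0.05 made a call. Over all tested genes, 0.771% were called higher and 0.881% lower in BALB/cByJ. The members held 0 genes called higher, 1 called lower and 39 not called, and the 1 was Cyth1 itself.

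As a check of the labels, the markers of ventricular cardiomyocytes summed to between 42127.8 and 50020.1 in BALB/cByJ and between 37409.6 and 42225.6 in BALB/cJ libraries, and those of atrial cardiomyocytes to at most 116.19 in any library. The pools also differed in their makeup. Y-linked transcripts summed to between 80.19 and 128.28 in BALB/cByJ, against 0.04 to 37.61 in BALB/cJ, and erythroid transcripts to between 2581 and 3250 in BALB/cByJ, against 3783 to 8422 in BALB/cJ. The 11 markers of T cells and thymocytes stood out in 2 BALB/cJ libraries, numbers 3 and 4. Y-linked transcripts come from male hearts alone, so the share of male hearts differed with strain, and BALB/cJ 1, at 0.04, held next to none. The labels give no sex. For the cell types, fewer cells of a type and less RNA per cell cannot be told apart in bulk tissue.

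Cyth1 had values of 0.19, 0.1 and 0.13 in the BALB/cByJ libraries, against 25.8, 26.65, 25.77 and 26.98 in the BALB/cJ libraries. Every BALB/cByJ library was near 0 and the BALB/cJ libraries lay within a narrow band. The gene lies at chr11:118164170-118248616 on GRCm38. The mean in BALB/cByJ was 0.00532 of that in BALB/cJ, and the difference was -4.58 (SE 0.10, adjusted p from limma of 5.4e-13). Its 95% interval ran from -4.80 to -4.36, and the call held in each of 18 alternative analyses.

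Cyth2, also known as ARNO, is the cytohesin closest to Cyth1 in coding sequence and came nearest to a call among the other members. It had values of 24.55, 28.07 and 26.8 in BALB/cByJ, against 33.93, 35.35, 37.42 and 32.23 in BALB/cJ. All 3 BALB/cByJ libraries lay below all 4 BALB/cJ libraries. The mean was 26.5 ± 1.78 in BALB/cByJ and 34.7 ± 2.20 in BALB/cJ (SD, n = 3 and 4), a ratio of 0.762. The difference was -0.38 with an interval of -0.59 to -0.17 and did not pass the test (adjusted p from limma of 0.072). Over the 18 alternatives its adjusted p ranged between 0.0674 and 0.325, so it was not called under any of them.

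Cyth3, also known as GRP1, binds phosphoinositides made in insulin signaling. Its values were 35.89, 32.31 and 26.58 in BALB/cByJ, against 32.56, 31.65, 34.36 and 35.66 in BALB/cJ. The groups overlapped, and BALB/cByJ library 3 was the lowest of the 7. The difference was -0.09 (adjusted p from limma of 0.681), and its interval allowed a BALB/cByJ level between 0.795 and 1.11 times that of BALB/cJ on the value + 1 scale. Cyth4, the cytohesin of blood cells, was low in these ventricles at 1.87, 1.76 and 1.87 in BALB/cByJ, against 1.77, 2.33, 2.13 and 2.38 in BALB/cJ, with a difference of -0.15 (adjusted p from limma of 0.511). Its interval was 0.757 to 1.07 times BALB/cJ on the value + 1 scale, which at so low a level is narrower than the range of levels it allows. None of the remaining cytohesins had a higher mean in BALB/cByJ.

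Summed over the 4 cytohesins, the expression value was 62.5, 62.24 and 55.38 in BALB/cByJ, against 94.06, 95.98, 99.68 and 97.25 in BALB/cJ. The mean was 60.04 ± 4.04 in BALB/cByJ and 96.7 ± 2.36 in BALB/cJ (SD, n = 3 and 4), a ratio of 0.621. In BALB/cJ, Cyth1 made up 27.2% ± 0.91 of this sum. Without Cyth1 the sum was 59.9 ± 4.03 in BALB/cByJ and 70.4 ± 2.45 in BALB/cJ, a ratio of 0.850, and the libraries of the strains did not overlap. The summed level of the cytohesins other than Cyth1 was thus not higher in BALB/cByJ. The values were summed without rescaling, and 65.2% of all tested genes also had a difference below 0, with a median of -0.07. These sums are descriptions and carry no test.

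**Figure D1:**
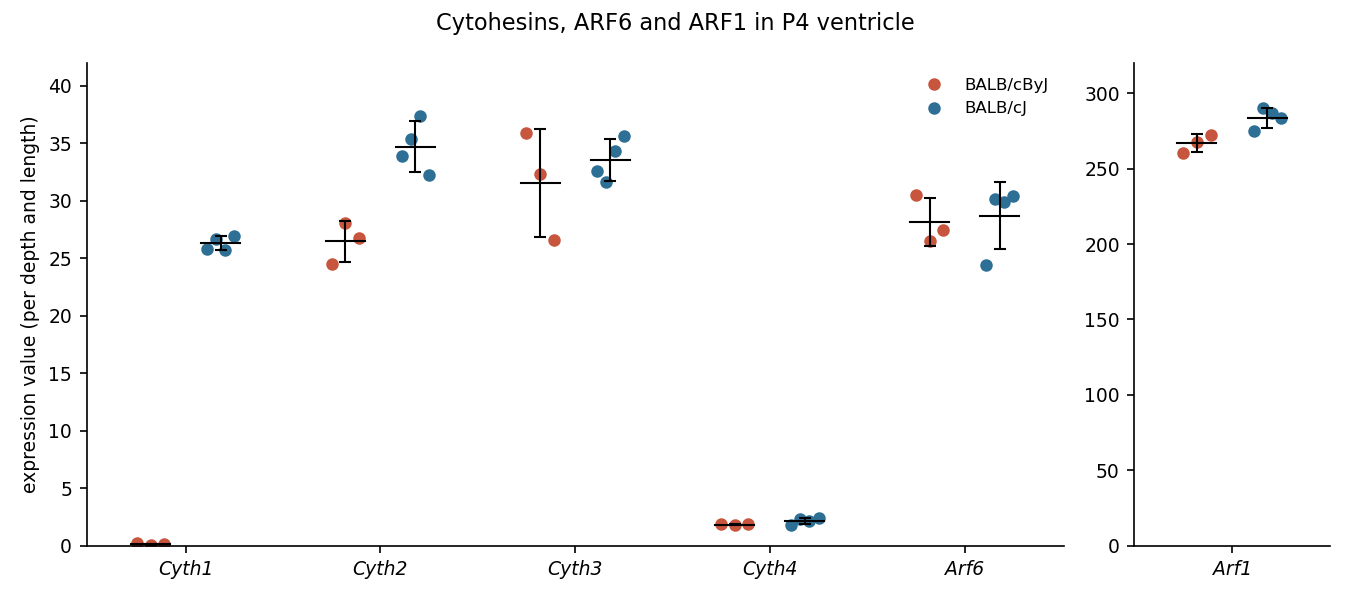
Expression values (taken as scaled for depth and transcript length, linear axis from 0) of the 4 cytohesins and Arf6 on the left and of Arf1 on its own axis on the right, with 1 point for each library, BALB/cByJ in red left of BALB/cJ in blue, and the mean with its SD as a bar. Cyth1 was at most 0.19 in BALB/cByJ and at least 25.77 in BALB/cJ, Cyth2 and Arf1 did not overlap between the strains, and Cyth3, Cyth4 and Arf6 did.

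ARF6, the GTPase of the plasma membrane on which cytohesins act, showed no difference in transcript level that passed the test. Arf6 (chromosome 12) had values of 30.52, 26.5 and 27.43 in BALB/cByJ, against 24.42, 30.15, 29.92 and 30.41 in BALB/cJ. The groups overlapped, and the lowest library was BALB/cJ 1. The mean was 28.2 ± 2.10 in BALB/cByJ and 28.7 ± 2.88 in BALB/cJ (SD, n = 3 and 4). The difference was -0.03 (adjusted p from limma of 0.926), with an interval that allowed a BALB/cByJ level between 0.838 and 1.15 times that of BALB/cJ on the value + 1 scale. Its sign turned under 7 of the 18 alternatives, and it was not called under any of them. The value farthest from 0 was -0.23, with the Y-linked level as a covariate.

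Arf1, the Golgi GTPase, was the most abundant of the members. It had values of 260.54, 267.66 and 272.37 in BALB/cByJ, against 274.71, 290.44, 286.71 and 283.23 in BALB/cJ. The BALB/cByJ libraries lay below those of BALB/cJ without overlap, with 272.37 as the highest BALB/cByJ value next to 274.71 as the lowest of BALB/cJ. The difference was -0.09 (adjusted p from limma of 0.669) and its interval was 0.81 to 1.09 times BALB/cJ on the value + 1 scale. The difference in Arf1 was near the median over all tested genes, -0.07.

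The large Golgi exchange factors load ARF1 and its relatives, GBF1 at the early Golgi and the products of Arfgef1 and Arfgef2 (BIG1 and BIG2) at the trans-Golgi network. None of the 3 was called. Gbf1 had values of 9.85, 12.73 and 9.97 in BALB/cByJ, against 16.31, 13.13, 13.65 and 12.69 in BALB/cJ, a difference of -0.34 (adjusted p from limma of 0.164). BALB/cByJ library 2 lay within the range of BALB/cJ and the other two below it. Arfgef2 had values of 5.74, 7.2 and 5.66 in BALB/cByJ, against 8.69, 6.83, 8.12 and 9.18 in BALB/cJ, a difference of -0.35 (adjusted p from limma of 0.155). Arfgef1 had values of 9.96, 12.52 and 10.22 in BALB/cByJ, against 12.16, 10.38, 12.53 and 14.63 in BALB/cJ, a difference of -0.17 (adjusted p from limma of 0.477). For all 3 genes BALB/cByJ library 2 was the highest of its strain and overlapped BALB/cJ.

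Of the 7 exchange factors of the plasma membrane and endosomes, 5 were tested and none was called. Iqsec1, whose product BRAG2 loads ARF6 and takes part in integrin endocytosis, had values of 24.04, 22.89 and 15.53 in BALB/cByJ, against 25.08, 23.84, 28.08 and 26.01 in BALB/cJ. The difference was -0.32 (adjusted p from limma of 0.227), and BALB/cByJ library 3 stood lowest. Fbxo8, which joins an F-box to a Sec7 domain, was the only tested member with a higher value in BALB/cByJ at an unadjusted p under 0.05. Its values were 25.43, 22.84 and 30.97 in BALB/cByJ, against 15.24, 23.35, 23.37 and 21.89 in BALB/cJ, a difference of 0.33 (adjusted p from limma of 0.249). BALB/cByJ library 2 lay within the BALB/cJ range, and in the fit that also held the Y-linked level the difference was -0.01. Iqsec2 averaged 4.56 in BALB/cByJ and 5.15 in BALB/cJ, Psd3 5.34 in BALB/cByJ and 6.18 in BALB/cJ, and Psd 0.683 in BALB/cByJ and 0.968 in BALB/cJ, with adjusted p from limma between 0.452 and 0.529. Of the EFA6 exchange factors encoded by the Psd genes, Psd4 was at 0.17 to 0.42 in BALB/cByJ and 0.29 to 0.77 in BALB/cJ, and Psd2 was listed at 0 in the 3 BALB/cByJ libraries and at 0 to 0.04 in BALB/cJ.

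Added up, the 14 exchange factors had an expression value of 146 ± 7.62 in BALB/cByJ and 191 ± 7.36 in BALB/cJ (SD, n = 3 and 4). The ratio was 0.766. Fbxo8, listed here for its Sec7 domain, was counted in this sum and averaged 26.4 in BALB/cByJ and 21.0 in BALB/cJ. The cytohesins made up 41.1% of that sum in BALB/cByJ and 50.7% in BALB/cJ. Without Cyth1 the 13 remaining exchange factors summed to 148.65, 151.91 and 137.39 in BALB/cByJ, against 158.12, 158.46, 172.75 and 168.64 in BALB/cJ. The ratio was 0.887, with no overlap. The values were not rescaled, and over all tested genes 65.2% of the differences were below 0. These sums are descriptions and carry no test.

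**Figure D2:**
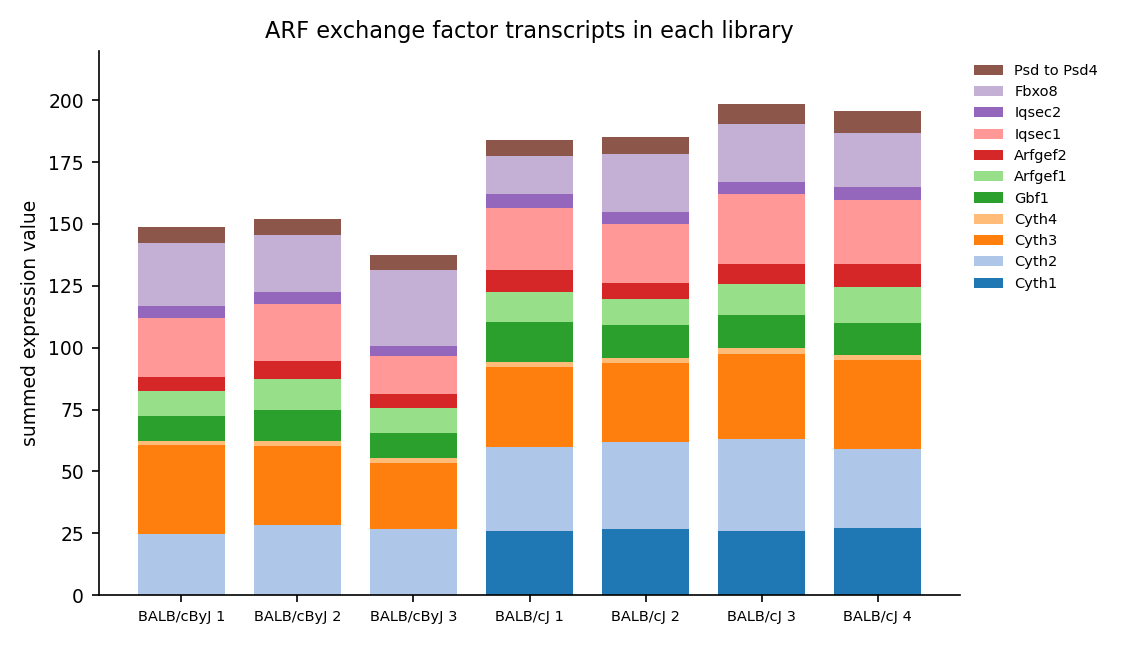
Expression values of the 14 ARF exchange factors stacked for each library (linear axis from 0), the 3 BALB/cByJ libraries on the left and the 4 BALB/cJ libraries on the right, each color standing for 1 gene except the top one, which joins Psd, Psd2, Psd3 and Psd4. The stacks reach 137.52 to 152.01 in BALB/cByJ and 183.92 to 198.52 in BALB/cJ, and the lowest block of BALB/cJ, Cyth1, is too thin to see in BALB/cByJ.

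The GTPase-activating proteins that act on ARF1 at the Golgi are encoded by Arfgap1, Arfgap2 and Arfgap3, and none was called. Arfgap1 had values of 14.99, 22.44 and 16.44 in BALB/cByJ, against 22.51, 20.64, 21.64 and 21.32 in BALB/cJ, a difference of -0.27 (adjusted p from limma of 0.264). BALB/cByJ library 2 was among the BALB/cJ values and the other two were below them. Arfgap2 had values of 24.38, 25.48 and 24.92 in BALB/cByJ, against 26.64, 23.35, 24.33 and 24.87 in BALB/cJ. This was a difference of 0.01 (adjusted p from limma of 0.972), with an interval of 0.874 to 1.16 times BALB/cJ on the value + 1 scale. Arfgap3 averaged 9.77 in BALB/cByJ and 11.1 in BALB/cJ (adjusted p from limma of 0.415).

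The ASAP, ACAP, AGAP and ARAP proteins are larger GTPase-activating proteins with ankyrin repeats and pleckstrin homology domains, many of them at focal adhesions and endosomes. All 12 were tested, none was called, and 10 of the 12 differences were below 0 (83.3%), where 65.2% of all tested genes were below 0. Asap1, which acts at focal adhesions, had values of 7.47, 7.69 and 5.88 in BALB/cByJ, against 9.56, 8.05, 9.31 and 9.53 in BALB/cJ, a difference of -0.34 (adjusted p from limma of 0.15). Agap1, which binds the AP-3 adaptor, had values of 6.41, 6.1 and 4.61 in BALB/cByJ, against 6.59, 6.67, 7.63 and 7.35 in BALB/cJ, a difference of -0.27 (adjusted p from limma of 0.249). Neither gene overlapped between the strains, and in both BALB/cByJ library 3 was the lowest. Asap2 had values of 6.03, 6.49 and 4.46 in BALB/cByJ, against 7.71, 5.91, 8.02 and 6.85 in BALB/cJ, a difference of -0.29 (adjusted p from limma of 0.267), with overlap at BALB/cJ library 2.

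The tested members of this class with the highest values were Agap3 and Arap3. Agap3 had values of 22.01, 20.77 and 19.98 in BALB/cByJ, against 23.91, 22.13, 25.78 and 22.5 in BALB/cJ, a difference of -0.16 (adjusted p from limma of 0.389). Arap3, a phosphoinositide-regulated GAP known from endothelium, had values of 17.16, 16.24 and 15.89 in BALB/cByJ, against 17.3, 17.85, 18.3 and 19.13 in BALB/cJ, a difference of -0.14 (adjusted p from limma of 0.466). Both were without overlap, by a narrow margin, as were Acap2 and Acap3. Among the other members of this class Arap1 averaged 12.9 in BALB/cByJ and 12.4 in BALB/cJ, Acap2 8.36 in BALB/cByJ and 9.52 in BALB/cJ, and Acap3 5.43 in BALB/cByJ and 5.99 in BALB/cJ. Asap3, Acap1, Agap2 and Arap2 averaged under 2 in both strains.

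The smaller GTPase-activating proteins comprise the GIT scaffolds, which bind paxillin and PIX, the clathrin-linked SMAPs, the phosphoinositide-binding ADAPs and the AGFGs, which carry FG repeats. All 8 were tested and none was called. Git1 had values of 32.65, 27.76 and 24.89 in BALB/cByJ, against 31, 29.79, 33.65 and 30.75 in BALB/cJ, a difference of -0.14 (adjusted p from limma of 0.501). Smap1 had values of 23.95, 25.94 and 24.87 in BALB/cByJ, against 24.06, 30.36, 29.99 and 28.42 in BALB/cJ, a difference of -0.17 (adjusted p from limma of 0.409). Both overlapped between the strains. Agfg2 had values of 7.52, 7.94 and 7.28 in BALB/cByJ, against 11.46, 8.97, 7.76 and 9.58 in BALB/cJ, a difference of -0.27 (adjusted p from limma of 0.255), with the overlap at BALB/cJ library 3. Agfg1 averaged 17.2 in BALB/cByJ and 19.2 in BALB/cJ, Smap2 13.9 in BALB/cByJ and 15.8 in BALB/cJ, and Git2 13.5 in BALB/cByJ and 15.3 in BALB/cJ. Adap1 and Adap2 averaged under 2 in both strains. The 23 GTPase-activating proteins together summed to 247 ± 10.9 in BALB/cByJ and 277 ± 9.38 in BALB/cJ (SD, n = 3 and 4), a ratio of 0.894. This sum too was not rescaled, and 65.2% of all tested genes had a difference below 0.

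The GGA proteins are effectors and not regulators of ARF1. They bind its active form at the trans-Golgi network and sort cargo such as mannose 6-phosphate receptors. Gga1 had values of 17.86, 19.33 and 16.2 in BALB/cByJ, against 23.36, 22.82, 24.14 and 20.54 in BALB/cJ, a difference of -0.34 with an interval of -0.56 to -0.12 (adjusted p from limma of 0.112). Gga3 had values of 6.56, 7.68 and 6.1 in BALB/cByJ, against 8.29, 8.29, 9.41 and 9.84 in BALB/cJ, a difference of -0.36 with an interval of -0.60 to -0.11 (adjusted p from limma of 0.123). Neither overlapped between the strains and neither passed the test. Gga2 had values of 17.4, 19.06 and 17.94 in BALB/cByJ, against 18.08, 16.96, 17.71 and 16.93 in BALB/cJ, a difference of 0.05 (adjusted p from limma of 0.795). Gga3, at chr11:115584255-115604517 on GRCm38, is the member nearest to Cyth1, 2.56 Mb away. Of the other 4 members on chromosome 11, Adap2 was the nearest at 37.99 Mb.

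**Figure D3:**
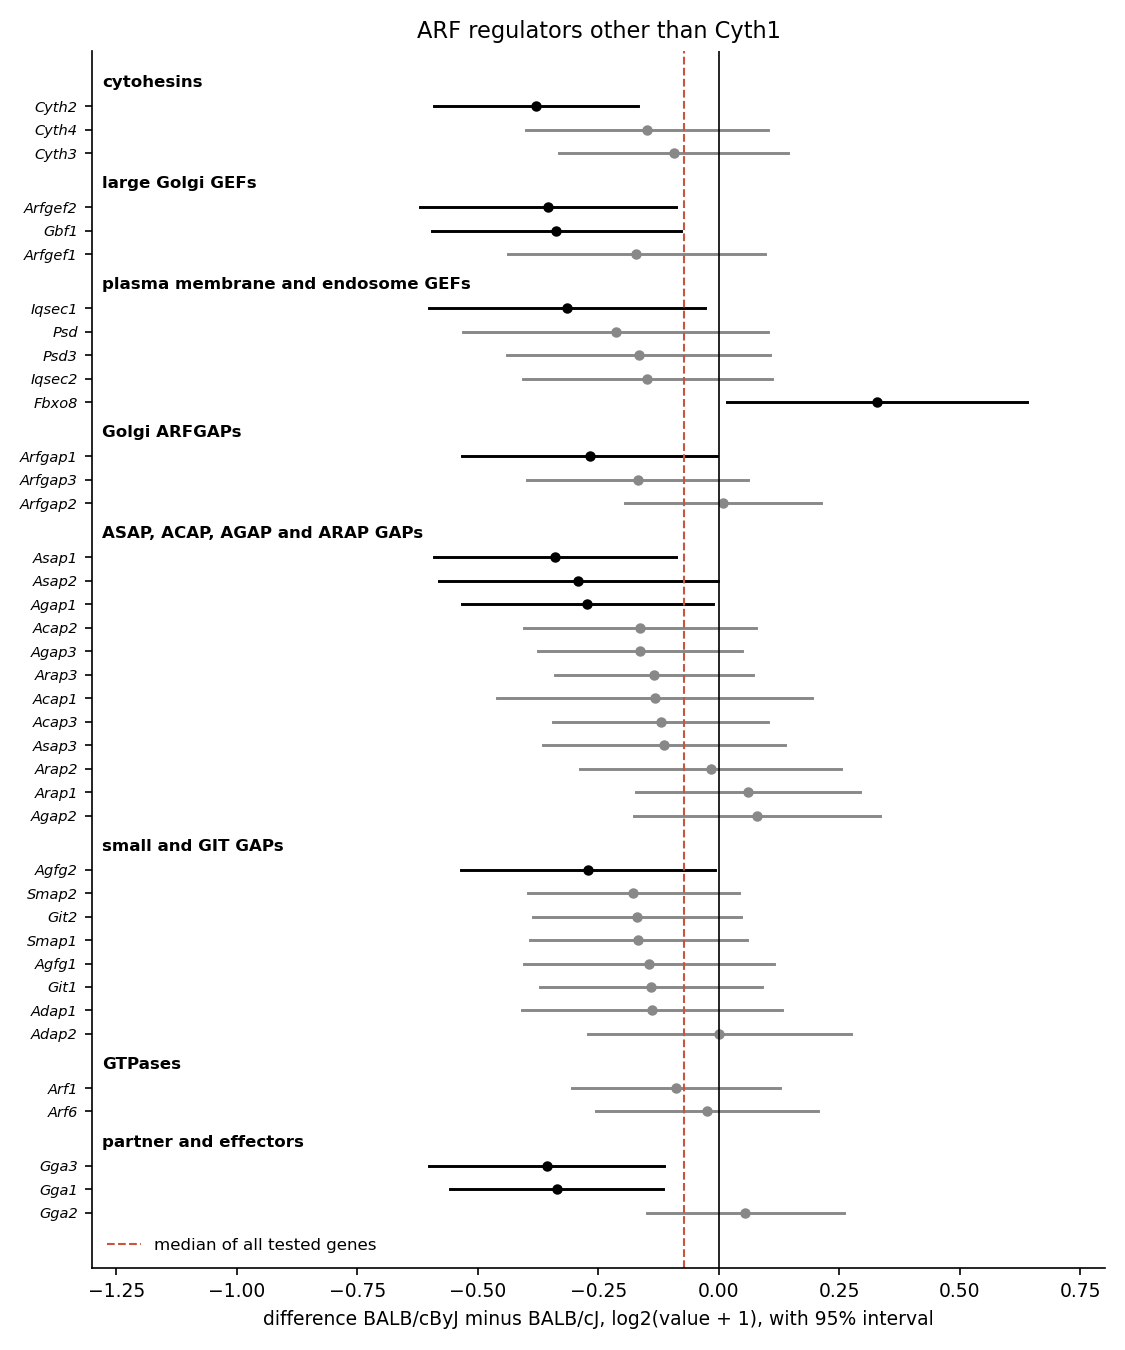
Difference BALB/cByJ minus BALB/cJ on the log2(value + 1) scale for the 39 tested members other than Cyth1, by role, as a point with its 95% interval, black where the unadjusted p was under 0.05. The dashed line is the median of all 12715 tested genes, -0.07, and 33 of the 39 points lie below 0, between -0.38 for Cyth2 and 0.33 for Fbxo8.

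Taken one by one, no member other than Cyth1 passed the test. On the value + 1 scale the intervals reached down to 0.651 times BALB/cJ for Arfgef2 and up to 1.56 times for Fbxo8, with those of the other 37 in between. For members with low values, such as Psd, these intervals allow wider ranges of level than the ratios show. At an unadjusted p under 0.05, 11 of the 39 were lower (28.2%) and 1 was higher, where 13.3% of all tested genes were lower and 5.06% higher. Libraries did not overlap for 11 of the 40 tested members, Cyth1 among them, all of these lower in BALB/cByJ (27.5%), where 12.6% of all tested genes were so lower and 4.33% so higher. The differences were below 0 for 33 of the 39 (84.6%), as they were for 65.2% of all tested genes, and the median was -0.16, against -0.07 over all tested genes.

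This share of small, uncalled differences moved with the analysis. After quantile normalization the median of the 39 was -0.09, against -0.01 over all genes, and 15.4% had an unadjusted p under 0.05 in the lower direction, against 7.06% of all genes. After trimmed-mean scaling the median was -0.10, against -0.01, with 15.4% lower, against 7.24% of all genes. The share of members was below that of all genes without BALB/cByJ library 3 (3 of 39, 7.69%, against 9.6%) and with the Y-linked level as a covariate (12.8%, against 13%). It was 10.3%, against 7.2%, with the T cell markers as a covariate, 17.9%, against 9.22%, without BALB/cJ library 3, and 17.9%, against 10.6%, without BALB/cJ library 4. It was largest with a mean of at least 2, at 34.4%, against 13.7%. The median of the members stayed below that of all genes in each alternative. It was -0.13, against -0.06, without BALB/cByJ library 3 and -0.20, against -0.12, with the Y-linked covariate. BALB/cByJ library 3 also had the lowest median deviation of the 39 members from their means over the libraries, -0.13 on the log2 scale, whereas its median over all tested genes was -0.04. The members share libraries and are not independent of each other, so no test of the list was made.

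Cytip encodes a scaffold protein of blood cells that binds cytohesins and was the only member other than Cyth1 that passed a test in any analysis made here. The study also lists Cytip among its differentially expressed genes, as higher in BALB/cJ. Its values were 0.2, 0.2 and 0.07 in BALB/cByJ, against 0.53, 0.59, 0.67 and 0.66 in BALB/cJ, too low for the minimum of 0.5 on the mean. The strains did not overlap, and the mean in BALB/cByJ was 0.256 of that in BALB/cJ. It is described because of these values. With no minimum, where 0.0919% of 17404 genes were called lower, the difference was -0.48 (adjusted p from limma of 0.0181), and with a pseudocount of 0.1 in place of 1 it was -1.52 (0.0466). Leaving out BALB/cJ 1 kept the call (adjusted p of 0.0275), and leaving out any of the other 6 libraries lost it (adjusted p between 0.0546 and 0.077), with differences of -0.51 to -0.43.

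Markers of T cells and thymocytes moved with Cytip in part. Their sum was 1.18, 0.9 and 1.15 in BALB/cByJ, against 2.23, 0.96, 18.34 and 6.27 in BALB/cJ. Of the 11 markers, 3 stayed under 0.5 in every library. Cd8b1 and Dntt were listed at 0 in all 3 BALB/cByJ libraries, and Dntt also in BALB/cJ library 1. Each of the other markers was above 0 in some BALB/cByJ library. Cd3g, for example, was at 0.4, 0.17 and 0.19 in BALB/cByJ, against 0.42, 0.09, 2.82 and 0.92 in BALB/cJ. In BALB/cJ library 2, the only BALB/cJ library with a marker sum within the BALB/cByJ range, Cytip was at 0.59, and in BALB/cJ library 1, with a marker sum above that range, it was at 0.53. With both BALB/cJ libraries 3 and 4 left out the difference was -0.43 (adjusted p from limma of 0.179), and with the marker sum as a covariate it was -0.44 (0.132). The markers of B cells summed to between 1.35 and 2.68 in BALB/cByJ and between 2.87 and 4.34 in BALB/cJ, and those of all leukocytes to between 15.82 and 21.94 in BALB/cByJ and between 15.53 and 31.49 in BALB/cJ. The part of B cells in the Cytip difference was not tested.

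**Figure D4:**
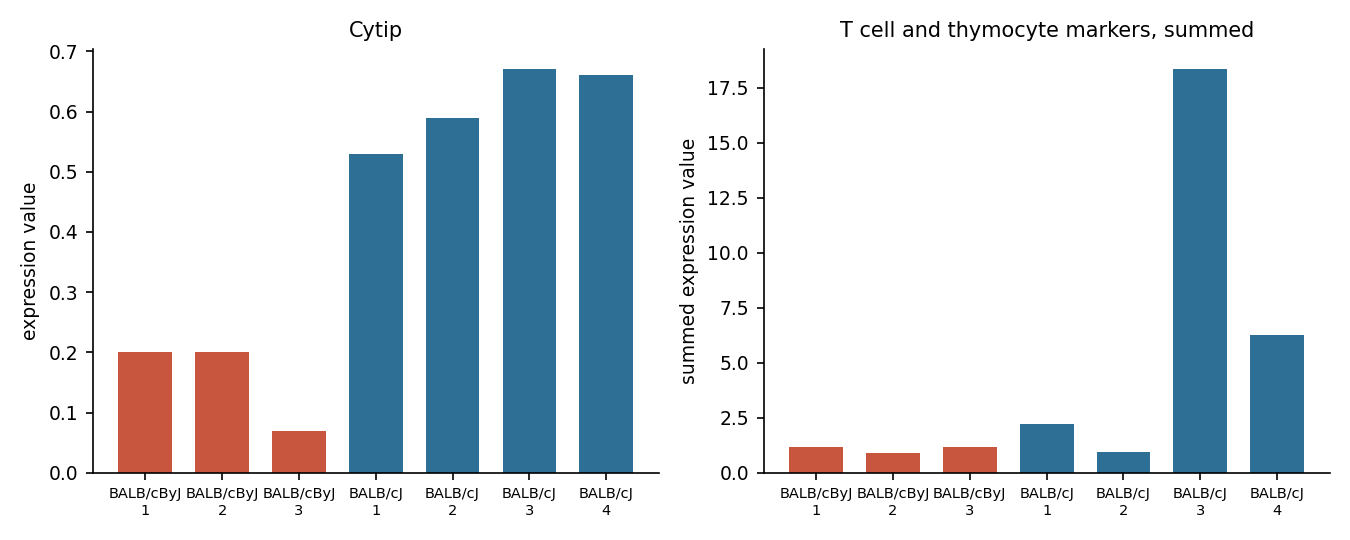
Expression value of Cytip (left) and summed expression value of the 11 T cell and thymocyte markers (right) in each library, as bars on linear axes from 0, the 3 BALB/cByJ libraries in red left of the 4 BALB/cJ libraries in blue. Cytip is between 0.07 and 0.2 in BALB/cByJ and between 0.53 and 0.67 in BALB/cJ, whereas the marker sum is high in BALB/cJ 3 and 4 alone, at 18.34 and 6.27.

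Genes of the same pathway outside the list gave no further call. Of 52 such genes, 47 were tested, and limma called 0 higher and 0 lower, where 0.771% of all tested genes were called higher and 0.881% lower. So few genes were called over the whole table that a count of 0 does not set these genes apart. At an unadjusted p under 0.05, 1 was higher and 4 were lower (8.51%), against 5.06% higher and 13.3% lower over all tested genes, and the median difference was -0.08, close to that of all genes. Arl4d and Arl4c, small GTPases whose products recruit cytohesins to the plasma membrane, had differences of opposite sign that did not pass the test. Arl4d had values of 12.64, 7.22 and 6.86 in BALB/cByJ, against 4.44, 6.36, 4.75 and 4.76 in BALB/cJ, a difference of 0.67 (adjusted p from limma of 0.0708). Arl4c had values of 13.12, 12.12 and 13.71 in BALB/cByJ, against 15.69, 17.15, 16.11 and 19.59 in BALB/cJ, a difference of -0.37 (adjusted p from limma of 0.0929). Neither overlapped between the strains. Without BALB/cByJ library 1, the highest of the 7 for Arl4d, its difference was 0.41 (adjusted p from limma of 0.25).

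Of the 12 tested ARF6 effectors, 10 were below 0 (83.3%, against 65.2% of all tested genes) and the median was -0.11, against -0.07. Pld2, a phospholipase D that makes phosphatidic acid, averaged 4.84 ± 0.626 in BALB/cByJ and 6.22 ± 0.484 in BALB/cJ (SD, n = 3 and 4), with an adjusted p from limma of 0.182. Kif23, the kinesin of the cytokinetic midbody that binds ARF6, averaged 11.9 ± 3.21 in BALB/cByJ and 14.2 ± 1.16 in BALB/cJ, with an adjusted p from limma of 0.346. Among the cytohesin partners, Frmd4a, whose product ties Cyth1 to cell polarity proteins, averaged 16.8 ± 2.28 in BALB/cByJ and 20.4 ± 1.74 in BALB/cJ (adjusted p from limma of 0.228). The coats that ARF1 recruits held no called subunit. For the 9 subunits of COPI the differences were below 0 in 5 and above 0 in 4, with a median of -0.02, and for the 7 subunits of AP-1 they were below 0 in 6, with a median of -0.11. Ap1m1, the medium chain of AP-1, averaged 28.3 ± 2.67 in BALB/cByJ and 34.2 ± 1.88 in BALB/cJ (adjusted p from limma of 0.183). Of the other Sec7 and ELMO-domain regulators, Iqsec3, Arfgef3 and Elmod1 were below the minimum, and Mon2, Elmod2 and Elmod3 had adjusted p from limma between 0.428 and 0.755.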

How the data were processed

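The authors deposited 1 table of expression values (a normalized signal per gene and library) for 17404 genes, rounded to 2 decimals. The values were taken as scaled for depth and transcript length, as FPKM or TPM would be. RNA was extracted from pooled P4 ventricles, and libraries were made and sequenced by BGI Genomics. The submitters' processing notes name the build mm10, with aligner, quantification and choice between FPKM and TPM not given in the sources used here. Read numbers could not be recovered from the values, and errors therefore rest on the spread between pools. Library sums of the values were 543023 to 628977, and 11815 to 11979 genes per library were at 1 or more.

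Genes averaging 0.5 or more (12715) were fitted as log2(value + 1) by limma 3.58.1 (R 4.3.3) on strain alone, the variance following the mean level and Benjamini-Hochberg adjustment over all of them. The p-values are two-sided and test the strain difference. Its error comes from the variance of each gene between pools, which limma draws toward the trend over all tested genes. The 43 members and the lists of pathway genes and markers were chosen with earlier results of these data known. Library values are given for the cytohesins, Arf6, Arf1, each member called or with an unadjusted p under 0.05, and the 2 most abundant tested members of each role, and for Cytip, which was chosen after its values were seen. In each pathway list up to 4 genes with the smallest p were followed, and the text names some of these.

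The alternatives were a pseudocount of 0.1, no minimum or a mean of at least 2, quantile normalization, trimmed-mean scaling (30% from each end), the replicate number as a block, the Y-linked or the T cell marker level as a covariate, no variance trend, and the omission of 1 library at a time. Chosen after seeing the data were the smaller pseudocount with no minimum, leaving out BALB/cJ 3 and 4 together, and the fits of Cytip with no minimum. The fit was tested on simulated data, in 5 runs with 200 changed genes each. It called 60% of the 1.5-fold and 96% of the 2-fold changes on the value + 1 scale. On average 4.19% of the calls were false. Changes smaller than 1.5-fold were not simulated. Promoters are from RefSeq on GRCm38.p6 and coding sequences from GENCODE M39 on GRCm39, aligned with mafft 7.526. Python 3.11.15 with pandas 2.3.3, numpy 2.4.6 and matplotlib 3.10.9 made the summaries.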

Additional observations from a re-analysis of the deposited data

Results flagged for a closer look

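In 2 of 25 genes looked at, a BALB/cJ library lay apart from the other 3 by more than Dixon's 95% critical value for 4 samples, and chance alone gives this in about 1 of 20 groups. Arf6 was at 24.42 in BALB/cJ 1, with the gap to the next library taking 0.918 of the range of that strain. Asap1 was at 8.05 in BALB/cJ 2, with 0.834 of the range, and remained above each BALB/cByJ library.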

How the results depend on the processing

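Cyth1 was called in each of 18 alternatives, 0 members were called higher in any of them and 0 of the other pathway genes were called. The number of members called lower was 1 except with no minimum, also with a pseudocount of 0.1, where Cytip joined and it was 2. Of 852 values for 48 genes, 825 kept their sign and their side of the threshold, 8 lost a call (all of Cytip, described above) and 19 changed sign, none of these for a called gene. The difference of Arf6 was 0.00745 after quantile normalization, 0.0487 after trimmed-mean scaling, 0.0248 with the T cell covariate, 0.00313 with the replicate block, 0.0484 without BALB/cJ 3 and 4, -0.229 with the Y-linked covariate, and between -0.0986 and 0.0156 without 1 library. Without 1 library, Cyth3 was between -0.188 and 0.0221, Arfgap2 between -0.0187 and 0.0422, and Cnksr1 between -0.193 and 0.0195. With the Y-linked covariate Fbxo8 was at -0.00883, Cnksr1 at 0.161, Copg1 at 0.0287 and Ap1b1 at 0.00316. After quantile normalization Elmod3 was at 0.0223 and Frmd4b at 0.000601, and without BALB/cJ 3 and 4 Arfgap2 was at -0.00112 and Elmod2 at 0.0622. The cause was not tested.

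Over all genes, calls were 98 higher and 112 lower, against 108 and 49 after quantile normalization, 135 and 60 after trimmed-mean scaling, 23 and 16 with no minimum, 25 and 21 with the Y-linked covariate, 63 and 36 with the T cell covariate, and 36 to 85 and 28 to 105 without 1 library. With the replicate block, which leaves out BALB/cJ 4, there were 38 and 20, members called lower were 1 and members called higher 0. Deviations of same-numbered libraries had correlations of -0.19, -0.26 and -0.05 across genes. The largest correlation of any pair was 0.39, between BALB/cByJ 2 and BALB/cJ 1. The labels name no batch, and whether any libraries shared one cannot be told from these correlations.

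The limits are 3 and 4 pools, values without counts, and strains that differ elsewhere in the genome and in the makeup of their pools. That makeup includes the share of male hearts.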
